A study of Caenorhabditis elegans with 12 samples.

Results

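Rab and Arl GTPases, the Vps proteins and the sorting nexins are the core machinery that moves and sorts membrane vesicles between the organelles of a cell. Their genes were taken here as every annotated feature of the Caenorhabditis elegans gene table that named 1 coding gene and whose name began with rab, arl, vps or snx followed by a number. That gave 53 genes of 31753 gene features, namely 18 rab, 5 arl, 24 vps and 6 snx genes. A further 6 names of this form (vps-4, rab-11.2, snx-14, arl-3, rab-1 and vps-32.2) stood in features merged with other genes and were not used here.

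The series measured RNA 3' ends by PAT-seq, which counts polyadenylated RNA by its 3' end and reads the length of the poly(A) tail. The 12 libraries came from early embryos, per the labels with more than 90% of them from the zygote to 24 cells. There were 6 groups of 2 libraries. In 4 of them N2 worms ate HT115(DE3) bacteria that made double-stranded RNA, and the gene knocked down was pos-1 in the first, gld-3 in the second, gld-2 in another and mex-5 in the last. The fifth group, mex-6(pk440), carried an allele of mex-6 in the N2 background, and the sixth was N2, the wild type, grown on OP50 bacteria. Food and RNAi therefore changed together between each RNAi group and N2 and cannot be told apart. The food of mex-6(pk440) is not given in the labels. An entry of 6 h of IPTG stands in the labels of all 12 samples, those of N2 and mex-6(pk440) included. The zinc finger proteins MEX-5, MEX-6 and POS-1 bind maternal messages in the embryo, while GLD-2 lengthens poly(A) tails in the cytoplasm together with GLD-3, which binds RNA. In the deposited tables the columns of mex-6(pk440) are headed as mex-6 RNAi; the sample titles, which give the allele, were followed.

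Rab GTPases mark membranes and, in their GTP form, recruit the motors, tethers and kinases that give a compartment its identity. RAB-5 works on early endosomes and RAB-7 on late endosomes and lysosomes, the HOPS and CORVET complexes tether the membranes that then fuse, ESCRT complexes pinch cargo into the endosome, and retromer with sorting nexins retrieves cargo to the Golgi or the surface. In the C. elegans oocyte yolk enters by receptor-mediated endocytosis, and the dividing embryo needs recycling membrane at its furrows. Because the early embryo transcribes little, most of its messages come from the mother, and the length of the poly(A) tail is one of the means by which such messages are held or used.

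The libraries held 4613974 to 10229871 reads in genes, and the 53 members took 8790 to 19635 of these, or 0.169% to 0.266%. Each targeted gene was lower than in N2 in both libraries of its own group, at a fitted 2.36% to 44.3% of N2. The 44.3% was gld-2 in gld-2 RNAi, and the next highest was pos-1 in pos-1 RNAi at 15.5%. Whether the paired libraries of a group were grown separately is not stated in the labels, so p-values measure the spread between these samples, and with bulk embryos fewer cells of a type and less RNA per cell cannot be told apart. The summed level of 19 maternal early embryo genes (pos-1, mex-5 and mex-6 among them) was 2014 to 2041 CPM in gld-2 RNAi and 2001 to 2213 CPM in mex-5 RNAi, against 3196 to 3641 CPM in N2. CPM here is the read count scaled to a common library size after correction for library composition. The other RNAi groups and mex-6(pk440) lay between, at 2418 to 2987 CPM. In pos-1 RNAi, mex-5 RNAi and mex-6(pk440) part of the lower sum was the targeted gene itself. In N2 pos-1 had 506 and 626 CPM, mex-5 457 and 449 CPM and mex-6 205 and 244 CPM. In pos-1 RNAi pos-1 had 132 and 42.8 CPM, in mex-5 RNAi mex-5 had 38.6 and 34.3 CPM and in mex-6(pk440) mex-6 had 7.03 and 3.07 CPM. The genes gld-2 and gld-3 were not in the list. By level gld-2 had 5.54 and 3.31 CPM in gld-2 RNAi against 12.3 and 8.30 CPM in N2.

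Since PAT-seq reads RNA at its 3' end, CPM was compared between genes without division by gene length. Not every read of a gene lay in a deposited poly(A) peak assigned to it. For rab-6.1 the median was 223 reads per library, while its single peak averaged 132 reads. By level, 52 members could be tested; rab-37 had 13 reads in all 12 libraries together. The median member stood at 21.3 CPM over the 12 libraries, beside 11.4 CPM for the median of all 9403 genes tested. An ESCRT gene and an endosomal Rab gene were at the top on average. The ESCRT-III gene vps-2 had 209 and 233 CPM in pos-1 RNAi, 224 and 248 in gld-3 RNAi and 136 and 195 in gld-2 RNAi. In mex-5 RNAi vps-2 stood at 219 and 198 CPM, in mex-6(pk440) at 239.6 and 293 CPM and in N2 at 238 and 244 CPM. The early endosome gene rab-5 had 218 and 217 CPM in pos-1 RNAi, 188 and 274 in gld-3 RNAi and 241 and 277 in gld-2 RNAi. In mex-5 RNAi rab-5 stood at 206 and 295 CPM, in mex-6(pk440) at 153 and 199 CPM and in N2 at 151 and 161 CPM. In both gld-2 RNAi libraries rab-5 was above vps-2, and in both N2 libraries it was below.

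The recycling endosome gene rab-11.1 had 186 and 181 CPM in pos-1 RNAi, 168 and 149 in gld-3 RNAi and 191 and 198 in gld-2 RNAi. In mex-5 RNAi rab-11.1 stood at 209 and 199.8 CPM, in mex-6(pk440) at 165 and 187 CPM and in N2 at 183 and 206 CPM. Its highest and lowest group means differed by a factor of 1.29. The secretory gene rab-8 had 115 and 135 CPM in pos-1 RNAi, 130.2 and 113.2 in gld-3 RNAi and 87.9 and 89.2 in gld-2 RNAi. In mex-5 RNAi rab-8 stood at 119.3 and 124 CPM, in mex-6(pk440) at 99.7 and 124 CPM and in N2 at 111 and 109 CPM. The ESCRT-III gene vps-32.1 had 117 and 107.9 CPM in pos-1 RNAi, 100.1 and 117 in gld-3 RNAi and 118.97 and 107.999 in gld-2 RNAi. In mex-5 RNAi vps-32.1 stood at 92.4 and 131 CPM, in mex-6(pk440) at 88.1 and 97.0 CPM and in N2 at 102 and 96.0 CPM, and with a factor of 1.23 between its highest and lowest group means it varied least of the members. In all, 34 of 52 members (65.4%) had group means within 2-fold of each other, against 38.6% of all genes tested, which is a description of genes of unequal depth and not a test.

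At the low end stood 3 genes of cilia, vps-45 and snx-17. The ciliary gene rab-28 averaged 1.37 CPM, arl-6 (a GTPase of the ciliary BBSome) 1.56 CPM, vps-45 (a partner of endosomal SNAREs) 1.76 CPM, arl-13 (a GTPase of the ciliary membrane) 2.65 CPM and snx-17 (a sorting nexin) 2.92 CPM. Levels of vps-45 were 1.90 and 1.72 CPM in pos-1 RNAi, 2.90 and 0.859 in gld-3 RNAi and 1.26 and 1.33 in gld-2 RNAi. In mex-5 RNAi vps-45 stood at 1.96 and 1.99 CPM, in mex-6(pk440) at 1.31 and 1.23 CPM and in N2 at 3.01 and 1.62 CPM. Levels of snx-17 were 3.57 and 3.28 CPM in pos-1 RNAi, 3.24 and 1.202 in gld-3 RNAi and 2.33 and 1.10 in gld-2 RNAi. In mex-5 RNAi snx-17 stood at 5.21 and 1.99 CPM, in mex-6(pk440) at 4.41 and 2.66 CPM and in N2 at 3.01 and 3.07 CPM. Neither passed a test in any comparison, on 5 to 37 reads per library. By role, the median level was 80.2 CPM for 4 endosomal and lysosomal Rab genes, 43.6 CPM for 8 ESCRT genes, 30.8 CPM for 6 Rab genes of the ER and Golgi, 28.98 CPM for 9 retromer and sorting nexin genes, 9.08 CPM for 7 HOPS and CORVET genes and 7.85 CPM for 4 GARP and EARP tether genes. The 4 GARP and EARP genes reached at most 12.2 CPM, below the lowest of the endosomal Rab genes (rab-21, 19.1 CPM).

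**Figure D1:**
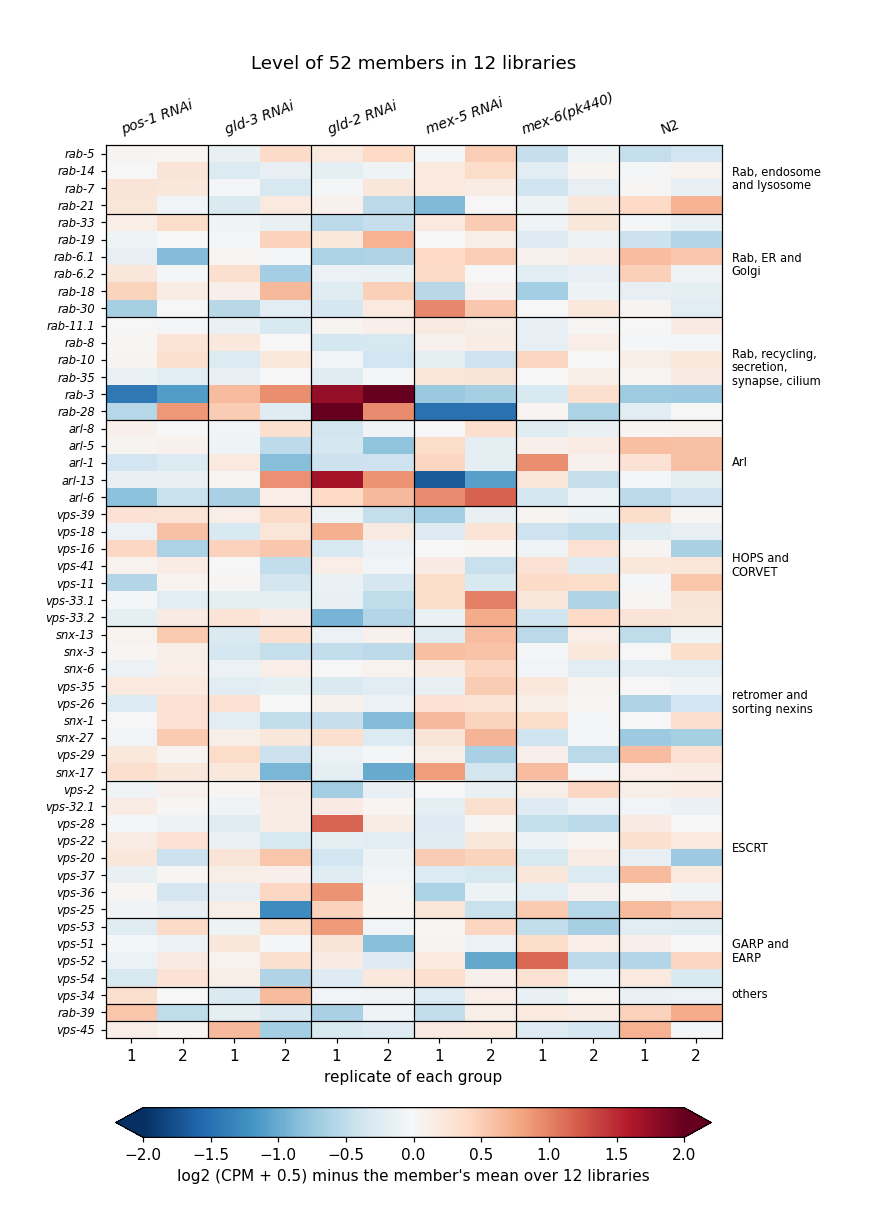
Level of the 52 tested members (rows, grouped by role and in order of mean CPM within a role) in the 12 libraries (columns, in pairs by group); colour is log2 (CPM + 0.5) minus the member's own mean, so red is above and blue below that mean. Most rows are pale, and the strongest colours are rab-3, rab-28 and arl-13 in gld-2 RNAi (red), rab-28 and arl-13 in mex-5 RNAi (blue) and rab-3 in pos-1 RNAi (blue).

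Set against N2, 15 members passed the level test in at least 1 of the 5 comparisons, and 1 more (vps-28) only in the test for any difference among the 6 groups, so 36 of the 52 passed neither. The edgeR quasi-likelihood test across the 6 groups called 9 members (17.3%), while it called 44.5% of all genes tested. The comparisons share the 2 N2 libraries, so that their results are not independent of each other.

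In pos-1 RNAi, 1 member of 52 passed, beside 12.2% of all genes tested. The members called higher were 0 (beside 4.69% of all genes) and lower 1 (beside 7.52%). This was rab-6.1, a Golgi GTPase of retrograde transport (chromosome III, 9004952 to 9005872, minus strand, ce10), which fell. Its level was 27.3 and 16.6 CPM in pos-1 RNAi, 31.04 and 29.7 in gld-3 RNAi and 19.5 and 19.9 in gld-2 RNAi. In mex-5 RNAi rab-6.1 stood at 40.2 and 43.2 CPM, in mex-6(pk440) at 32.4 and 33.8 CPM and in N2 at 47.1 and 44.4 CPM. Both pos-1 RNAi libraries were below both N2 libraries (-1.05 ± 0.25 on the log2 scale, SE; edgeR adjusted p = 0.0145). The members' median change was -0.03, beside -0.09 for all genes. The cargo adaptor snx-27, with 12.8 and 19.5 CPM in pos-1 RNAi and 7.93 and 8.30 CPM in N2, was next by p and did not pass (0.98 ± 0.31 on the log2 scale, edgeR adjusted p = 0.0556). A list of 17 late embryo and larval tissue genes, used as markers of older embryos, summed to 732 CPM in both pos-1 RNAi libraries against 662 to 727 CPM in N2, with 2 called higher and 6 lower of 15 and up to 2 at 0 reads in pos-1 RNAi. Sperm genes summed to 40.5 to 63.0002 CPM in pos-1 RNAi against 159 to 224 CPM in N2, with 16 of 26 tested called lower and 1 to 3 of 28 at 0 in pos-1 RNAi. Genes of yolk and of the adult intestine summed to 33.8 to 92.2 CPM in pos-1 RNAi against 272 to 440.4 CPM in N2, with 10 of 11 called lower and up to 2 of 13 at 0 in pos-1 RNAi. The part of these lists in the fall of rab-6.1 was not tested. The call of rab-6.1 held in 5 of 10 alternatives. With mex-6(pk440) in place of N2 its change was -0.58 and it was not called, while 1 other member (rab-3, lower) was. No member was called when pos-1 RNAi replicate 2, N2 replicate 1 or N2 replicate 2 was left out (0 members each) or with the 4 samples of the comparison alone (0 members), and 2 were without pos-1 RNAi replicate 1 (rab-6.1 and snx-27).

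In gld-3 RNAi, 1 member of 52 passed as well, beside 8.08% of all genes tested. The count was 1 higher (beside 4.06%) and 0 lower (beside 4.02%). It was rab-3, the Rab of synaptic vesicles (chromosome II, 5722304 to 5727632, minus strand, ce10), which rose. Its level was 2.12 and 2.76 CPM in pos-1 RNAi, 10.4 and 13.1 in gld-3 RNAi and 23.3 and 28.9 in gld-2 RNAi. In mex-5 RNAi rab-3 stood at 3.75 and 3.98 CPM, in mex-6(pk440) at 5.25 and 8.39 CPM and in N2 at 3.82 and 3.79 CPM. Both gld-3 RNAi libraries lay above both N2 libraries, by 1.62 ± 0.32 on the log2 scale (SE; edgeR adjusted p = 0.00839). The Golgi GTPase gene arl-5, with 26.8 and 19.6 CPM in gld-3 RNAi and 43.4 and 42.7 CPM in N2, came next at -0.89 ± 0.26 (edgeR adjusted p = 0.0536), and rab-19, with 35.1 and 49.3 CPM in gld-3 RNAi and 26.2 and 23.6 CPM in N2, followed at 0.75 ± 0.25 (edgeR adjusted p = 0.0761); neither passed. The members' median change was -0.07, beside -0.02 for all genes. Sperm genes summed to 35.3 to 45.5 CPM in gld-3 RNAi against 159 to 224 CPM in N2, with 23 of 26 called lower and 2 to 3 of 28 at 0 in gld-3 RNAi. Yolk and adult intestine genes summed to 154 to 169 CPM in gld-3 RNAi against 272 to 440.4 CPM in N2, with 5 of 11 called lower. Late embryo and larval tissue genes summed to 693 to 860 CPM in gld-3 RNAi against 662 to 727 CPM in N2, with 2 called higher and 2 lower. The part of these lists in the rise of rab-3 was not tested. No member was called without gld-3 RNAi replicate 2 or N2 replicate 2 (0 members each) or with mex-6(pk440) in place of N2 (0 members), while 3 were without gld-3 RNAi replicate 1 (rab-3, rab-19 and vps-25).

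In gld-2 RNAi, 9 members of 52 (17.3%) passed, beside 27.2% of all genes tested. Of these 5 were higher (beside 14.4%) and 4 lower (beside 12.8%). The largest rise was again in rab-3, at 23.3 and 28.9 CPM in gld-2 RNAi against 3.82 and 3.79 CPM in N2, 2.77 ± 0.31 on the log2 scale (SE; edgeR adjusted p = 1.9e-04), or 6.81-fold. These were the 2 highest of the 12 libraries for rab-3, and this call was the only member call of the comparison that passed in 10 of 10 alternatives. The ciliary genes arl-13 and rab-28 rose too. Levels of arl-13 were 1.90 and 1.90 CPM in pos-1 RNAi, 2.201 and 4.46 in gld-3 RNAi and 7.87 and 4.42 in gld-2 RNAi. In mex-5 RNAi arl-13 stood at 0.326 and 0.745 CPM, in mex-6(pk440) at 2.62 and 1.43 CPM and in N2 at 2.11 and 1.80 CPM, and the gld-2 RNAi libraries were above N2 by 1.67 ± 0.45 (edgeR adjusted p = 0.0167). Levels of rab-28 were 0.446 and 2.07 CPM in pos-1 RNAi, 1.51 and 0.687 in gld-3 RNAi and 6.51 and 2.21 in gld-2 RNAi. In mex-5 RNAi rab-28 stood at 0 and 0 CPM, in mex-6(pk440) at 0.954 and 0.409 CPM and in N2 at 0.703 and 0.902 CPM, and gld-2 RNAi was above N2 by 2.54 ± 0.71 (edgeR adjusted p = 0.0216). In both genes gld-2 RNAi replicate 1 was the highest of the 12 libraries, with 81 and 67 reads, against 20 and 10 reads in replicate 2, and neither passed without gld-2 RNAi replicate 1, N2 replicate 1 or N2 replicate 2.

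The other risen members were rab-5 and rab-19. For rab-5, 241 and 277 CPM in gld-2 RNAi stood against 151 and 161 CPM in N2, 0.73 ± 0.24 on the log2 scale (edgeR adjusted p = 0.0395). For rab-19, the values were 33.3 and 35.5 CPM in pos-1 RNAi, 35.1 and 49.3 in gld-3 RNAi and 41.4 and 58.1 in gld-2 RNAi. In mex-5 RNAi rab-19 stood at 35.4 and 38.5 CPM, in mex-6(pk440) at 29.8 and 33.15 CPM and in N2 at 26.2 and 23.6 CPM, a change in gld-2 RNAi of 0.99 ± 0.25 (edgeR adjusted p = 0.0116). The libraries of gld-2 RNAi and N2 did not overlap in either gene, and in rab-19 the N2 libraries were the lowest of the 12.

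The 4 fallen members were 2 Golgi GTPase genes and 2 sorting nexin genes. For rab-6.1, 19.5 and 19.9 CPM in gld-2 RNAi stood against 47.1 and 44.4 CPM in N2 (-1.22 ± 0.25, edgeR adjusted p = 0.00430). Levels of arl-5 were 29.3 and 29.997 CPM in pos-1 RNAi, 26.8 and 19.6 in gld-3 RNAi and 22.1 and 15.9 in gld-2 RNAi. In mex-5 RNAi arl-5 stood at 36.7 and 24.8 CPM, in mex-6(pk440) at 30.5 and 31.3 CPM and in N2 at 43.4 and 42.7 CPM (gld-2 RNAi against N2 -1.17 ± 0.26, edgeR adjusted p = 0.00718). In both genes the N2 libraries were the 2 highest of the 12. The retromer partner snx-3 had 42.9 and 45.2 CPM in pos-1 RNAi, 32.4 and 29.7 in gld-3 RNAi and 29.5 and 28.9 in gld-2 RNAi. In mex-5 RNAi snx-3 stood at 63.7 and 62.1 CPM, in mex-6(pk440) at 41.3 and 48.5 CPM and in N2 at 41.4 and 53.2 CPM, a change in gld-2 RNAi of -0.69 ± 0.22 (edgeR adjusted p = 0.0314). The sorting nexin gene snx-1, whose product works with retromer, had 17.6 and 22.1 CPM in pos-1 RNAi, 15.2 and 12.5 in gld-3 RNAi and 12.8 and 9.50 in gld-2 RNAi. In mex-5 RNAi snx-1 stood at 28.2 and 24.3 CPM, in mex-6(pk440) at 23.01 and 17.6 CPM and in N2 at 17.8 and 22.5 CPM, with a change of -0.83 ± 0.27 (edgeR adjusted p = 0.0390). Both sorting nexins had their 2 highest libraries in mex-5 RNAi, where they did not pass against N2, and both gld-2 RNAi libraries were below both of N2.

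The members' median change in gld-2 RNAi was -0.20, beside -0.01 for all genes. Of the 17 late embryo and larval tissue genes (rab-3 left out), 15 could be tested, 9 were called higher and 0 lower in gld-2 RNAi, and their summed level was 1084 to 1266 CPM in gld-2 RNAi against 662 to 727 CPM in N2, with no marker at 0 reads in either group. Yolk and adult intestine genes summed to 562 to 584 CPM in gld-2 RNAi against 272 to 440.4 CPM in N2, with 2 of 11 called higher and 1 of 13 at 0 in 1 N2 library. Sperm genes summed to 182 to 201 CPM in gld-2 RNAi against 159 to 224 CPM in N2, with 1 of 26 called lower. Of 19 maternal genes, 11 were called lower in gld-2 RNAi and 0 higher. The part of these marker lists in the rise of rab-3, arl-13 and rab-28 was not tested. Leaving out gld-2 RNAi replicate 1, gld-2 RNAi replicate 2, N2 replicate 1 or N2 replicate 2 left 3, 6, 4 and 3 members called, in that order, with rab-3 among them each time. Of 10 alternatives, the call held in 8 for rab-6.1 and arl-5, in 7 for arl-13 and rab-28, in 6 for rab-19, in 5 for rab-5, in 3 for snx-3 and in 2 for snx-1. The call of rab-5 was lost with each of the 4 libraries left out, and so was that of snx-1, which was also lost with RLE factors, no filter, DESeq2 and the 4 samples alone. DESeq2 called 7 of the 9, without snx-1 and snx-3, and with mex-6(pk440) in place of N2 the calls of rab-6.1, arl-5, rab-5, rab-19 and snx-3 were lost.

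In mex-5 RNAi, 8 members of 52 (15.4%) passed, beside 30.8% of all genes tested. Of these 5 were higher (beside 18.4%) and 3 lower (beside 12.5%). The ciliary gene arl-6 rose most. Its level was 0.558 and 0.862 CPM in pos-1 RNAi, 0.695 and 1.55 in gld-3 RNAi and 1.94 and 2.43 in gld-2 RNAi. In mex-5 RNAi arl-6 stood at 3.10 and 3.73 CPM, in mex-6(pk440) at 0.954 and 1.23 CPM and in N2 at 0.803 and 0.902 CPM (mex-5 RNAi against N2 1.98 ± 0.51, edgeR adjusted p = 0.00989). These are 19 and 15 reads in mex-5 RNAi against 8 and 5 reads in N2. Its mex-5 RNAi libraries were the highest of the 12 and its gld-2 RNAi libraries the next. The retromer cargo adaptor snx-27 had 12.8 and 19.5 CPM in pos-1 RNAi, 14.6 and 15.8 in gld-3 RNAi and 16.8 and 11.04 in gld-2 RNAi. In mex-5 RNAi snx-27 stood at 16.13 and 21.9 CPM, in mex-6(pk440) at 10.02 and 13.1 CPM and in N2 at 7.93 and 8.30 CPM, a change in mex-5 RNAi of 1.22 ± 0.31 (edgeR adjusted p = 0.0104). Its N2 libraries were the lowest of the 12.

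The ESCRT-III gene vps-20 had 39.03 and 24.5 CPM in pos-1 RNAi, 39.8 and 49.1 in gld-3 RNAi and 25.4 and 31.1 in gld-2 RNAi. In mex-5 RNAi vps-20 stood at 47.7 and 45.5 CPM, in mex-6(pk440) at 26.7 and 36.8 CPM and in N2 at 29.6 and 19.8 CPM (mex-5 RNAi against N2 0.91 ± 0.29, edgeR adjusted p = 0.0312). Its highest library was gld-3 RNAi replicate 2. The retromer gene vps-26 had 23.5 and 35.2 CPM in pos-1 RNAi, 35.1 and 28.3 in gld-3 RNAi and 30.1 and 26.1 in gld-2 RNAi. In mex-5 RNAi vps-26 stood at 34.7 and 34.5 CPM, in mex-6(pk440) at 30.8 and 29.1 CPM and in N2 at 18.6 and 21.8 CPM (mex-5 RNAi against N2 0.78 ± 0.25, edgeR adjusted p = 0.0318). Its N2 libraries were the lowest of the 12. For rab-5, 206 and 295 CPM in mex-5 RNAi stood against 151 and 161 CPM in N2 (0.68 ± 0.24, edgeR adjusted p = 0.0467). The mex-5 RNAi libraries lay above both N2 libraries in all 3 genes. The counts of 2 of these genes carry a limit. At vps-26 a second peak was shared with T20D3.6, and whether its reads entered the count is not stated. The shared peak averaged 262 reads and the own peak 181, while the gene had a median of 194.5 reads per library. At vps-20 most reads lay in an unusual peak described with the poly(A) sites.

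The 3 fallen members were arl-13, rab-21 and vps-37. For arl-13, mex-5 RNAi had 2 and 3 reads against 21 and 10 reads in N2 (-1.95 ± 0.69, edgeR adjusted p = 0.0461). The endosomal GTPase gene rab-21 had 21.9 and 17.8 CPM in pos-1 RNAi, 14.9 and 21.1 in gld-3 RNAi and 19.5 and 12.6 in gld-2 RNAi. In mex-5 RNAi rab-21 stood at 9.78 and 18.4 CPM, in mex-6(pk440) at 17.05 and 21.7 CPM and in N2 at 24.3 and 29.9 CPM (mex-5 RNAi against N2 -0.96 ± 0.34, edgeR adjusted p = 0.0453). The ESCRT-I gene vps-37 had 18.3 and 20.7 CPM in pos-1 RNAi, 22.1 and 21.8 in gld-3 RNAi and 17.1 and 19.7 in gld-2 RNAi. In mex-5 RNAi vps-37 stood at 16.8 and 16.15 CPM, in mex-6(pk440) at 23.96 and 16.8 CPM and in N2 at 31.9 and 23.4 CPM (mex-5 RNAi against N2 -0.75 ± 0.26, edgeR adjusted p = 0.0421). Its distal peak was shared with CD4.3. The shared peak averaged 133.5 reads per library and the own peak 118. The gene had 1766 reads in the 12 libraries together, fewer than both peaks, so the shared reads cannot all have entered its count. The mean tail was 38.8 nt for the gene, 38.8 nt at the own peak and 33.5 nt at the shared one. In rab-21 and vps-37 both N2 libraries lay above both mex-5 RNAi libraries. For rab-28, both mex-5 RNAi libraries held 0 reads, which allows up to 0.489 and 0.745 CPM at a limit of 3 reads per library and counting error only, against 7 and 5 reads (0.703 and 0.902 CPM) in N2, and it did not pass (edgeR adjusted p = 0.0684).

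The members' median change in mex-5 RNAi was 0.09, beside -0.04 for all genes. The late embryo and larval tissue markers summed to 1355 to 1504 CPM in mex-5 RNAi against 662 to 727 CPM in N2, with 8 of 15 called higher, 2 lower and none at 0. Sperm genes summed to 12.9 to 17.6 CPM in mex-5 RNAi against 159 to 224 CPM in N2, with 25 of 26 tested called lower and 6 to 13 of 28 at 0 in mex-5 RNAi. Yolk and adult intestine genes summed to 376 to 382 CPM in mex-5 RNAi against 272 to 440.4 CPM in N2, with 4 of 11 called higher and 6 lower. The part of these lists in the changes of arl-6, arl-13 and rab-28 was not tested. Leaving out mex-5 RNAi replicate 1, mex-5 RNAi replicate 2, N2 replicate 1 or N2 replicate 2 left 3, 1, 1 and 3 members called, in that order, and no member passed in all 4. Of 10 alternatives, the call held in 8 for arl-6, in 7 for snx-27, in 6 for vps-20 and rab-21, in 5 for rab-5, in 4 for arl-13 and in 3 for vps-26 and vps-37. With mex-6(pk440) in place of N2, 1 member (arl-6) was called, and with the 4 samples of the comparison alone 5 were.

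**Figure D2:**
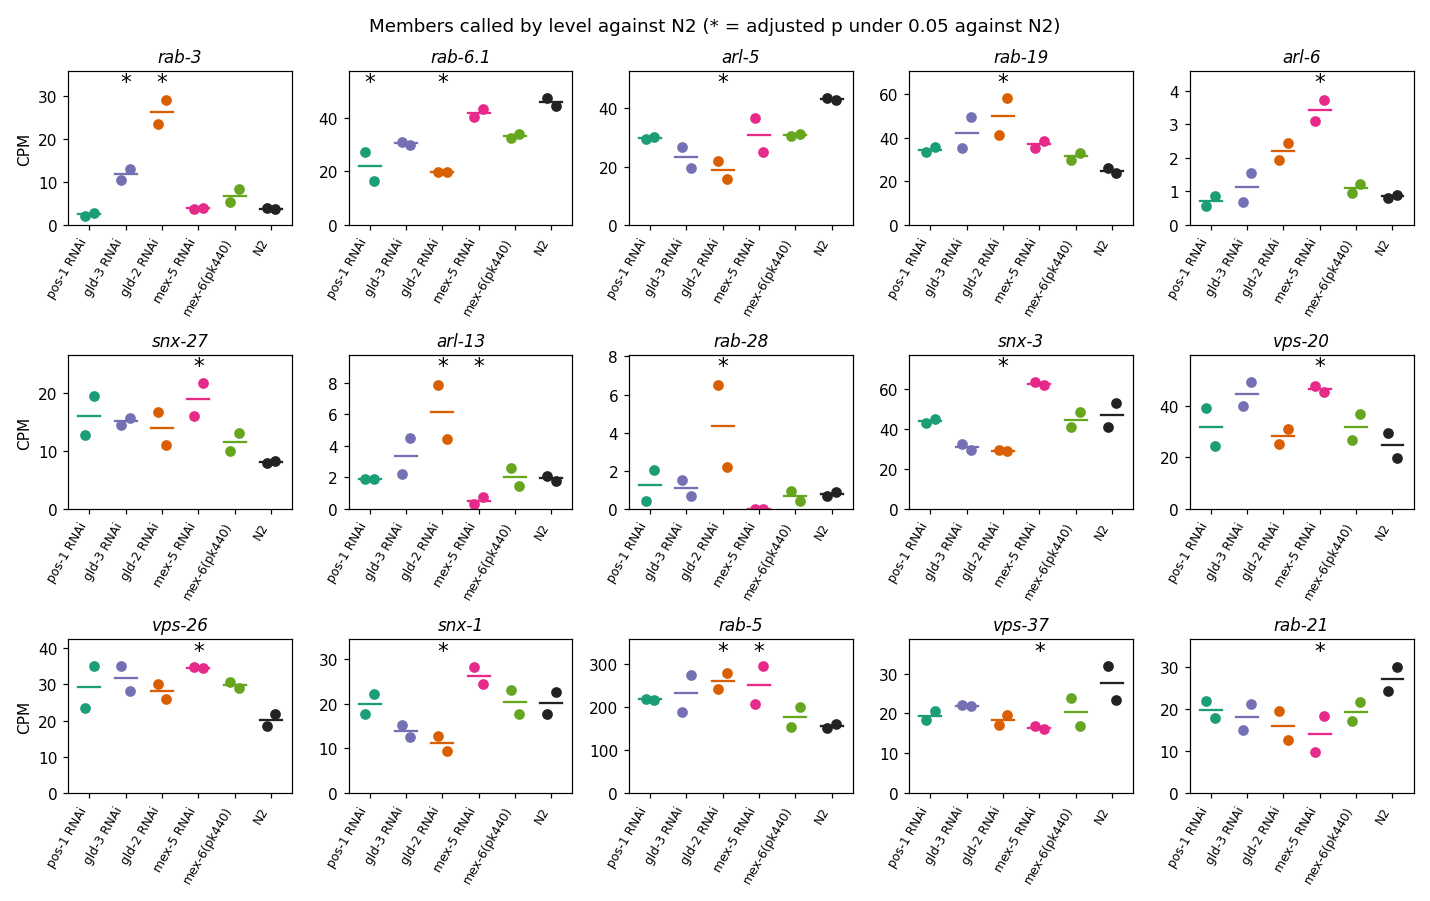
CPM per library (dots) and group mean (lines) of the 15 members called by level against N2 in at least 1 comparison, in panels ordered by p, with groups along the x axis and an asterisk over each group called against N2 by edgeR at an adjusted p under 0.05. In rab-3 the gld-2 RNAi libraries stand at 23.3 and 28.9 CPM against 3.82 and 3.79 CPM in N2.

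In mex-6(pk440), 0 members passed in edgeR and 0 in DESeq2, beside 2 genes of 9403 (0.0213%). At an unadjusted p under 0.05 there were 2 members, beside 9.15% of all genes: rab-3, with 5.25 and 8.39 CPM in mex-6(pk440) against 3.82 and 3.79 CPM in N2 (0.81 ± 0.33, edgeR adjusted p = 0.473), and vps-26, with 30.8 and 29.1 CPM in mex-6(pk440) against 18.6 and 21.8 CPM in N2 (0.57 ± 0.25, edgeR adjusted p = 0.518). The third by p, the ESCRT-I gene vps-28, had 49.95 and 47.8 CPM in pos-1 RNAi, 43.3 and 56.8 in gld-3 RNAi and 115 and 56.98 in gld-2 RNAi. In mex-5 RNAi vps-28 stood at 42.7 and 51.9 CPM, in mex-6(pk440) at 36.5 and 35.2 CPM and in N2 at 57.3 and 51.2 CPM. It passed only the test among the 6 groups (edgeR adjusted p = 0.0354), and gld-2 RNAi replicate 1 was far above the other 11 libraries. It did not pass without that library (edgeR adjusted p = 0.279), nor in 8 of the other 11 fits that each left out a library. In the same test the adjusted p was 1.7e-05 for rab-3, 0.00375 for arl-13, 0.00669 for rab-6.1, 0.00716 for rab-28, 0.00770 for snx-3, 0.0137 for arl-6, 0.0241 for snx-1 and 0.0298 for arl-5 (edgeR). Of these, rab-3, arl-13, rab-6.1 and snx-3 passed in 16 of 16 alternatives.

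Tails were tested in 45 members with at least 10 reads and a tail value in all 12 libraries. Of the other members, 7 had tail values in some libraries only and rab-37 had none. The median tail over these members was 42.8 nt, beside 44.3 nt over all 5471 genes tested. The members behind these values had a median of 197 reads per library, beside 192 reads for all genes tested. Across the 45 members the correlation of level and tail was weak (Spearman's rho -0.17 over members from the same 12 libraries), and across all 5471 genes it was -0.08.

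The longest tails belonged to rab-3, to the HOPS genes vps-18 and vps-41, to the lipid kinase gene vps-34 and to rab-10, a GTPase of recycling. For rab-3 the mean tail was 72.8 and 68.8 nt in pos-1 RNAi, 65.1 and 77.6 in gld-3 RNAi and 71.4 and 65.8 in gld-2 RNAi. In mex-5 RNAi rab-3 stood at 70.4 and 85.6 nt, in mex-6(pk440) at 64.2 and 73.2 nt and in N2 at 70.3 and 65.2 nt. The gene rab-3 had only 23 and 16 reads in mex-5 RNAi and 38 and 21 reads in N2. For vps-18 the mean tail was 78.7 and 71.8 nt in pos-1 RNAi, 64.3 and 76.7 in gld-3 RNAi and 71.4 and 64.6 in gld-2 RNAi. In mex-5 RNAi vps-18 stood at 62.3 and 70.3 nt, in mex-6(pk440) at 76.5 and 69.1 nt and in N2 at 78.8 and 65.5 nt. For vps-41 it was 67.7 and 66.4 nt in pos-1 RNAi, 66.8 and 56 in gld-3 RNAi and 68.4 and 76.9 in gld-2 RNAi. In mex-5 RNAi vps-41 stood at 58.4 and 38.9 nt, in mex-6(pk440) at 50.9 and 62.2 nt and in N2 at 70.5 and 65.4 nt. The lowest libraries of rab-3 and vps-18 were at 64.2 and 62.3 nt, over the 40.4 to 46.9 nt that the median gene had per library. For vps-34 the mean tail was 63.7 and 65.6 nt in pos-1 RNAi, 59.2 and 69.7 in gld-3 RNAi and 63 and 57.2 in gld-2 RNAi. In mex-5 RNAi vps-34 stood at 49.1 and 65.9 nt, in mex-6(pk440) at 50.7 and 54.5 nt and in N2 at 60.8 and 47.1 nt. For rab-10 it was 56.9 and 58.0 nt in pos-1 RNAi, 50.8 and 57.5 in gld-3 RNAi and 55.8 and 58.8 in gld-2 RNAi. In mex-5 RNAi rab-10 stood at 50.4 and 52.4 nt, in mex-6(pk440) at 48.3 and 49.2 nt and in N2 at 55.01 and 46.2 nt. In both genes the pos-1 RNAi libraries lay above both N2 libraries, as did those of gld-2 RNAi in rab-10, and neither gene passed in any comparison.

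The shortest tails belonged to rab-33, a GTPase of Golgi and autophagic membranes, to vps-20, rab-19, the ESCRT-II gene vps-22 and vps-33.2. For rab-33 the mean tail was 23.8 and 24.8 nt in pos-1 RNAi, 23.3 and 25.3 in gld-3 RNAi and 25.8 and 26.3 in gld-2 RNAi. In mex-5 RNAi rab-33 stood at 25.5 and 24.9 nt, in mex-6(pk440) at 24.5 and 24.3 nt and in N2 at 23.9 and 24.6 nt. Its 12 libraries spanned only 23.3 to 26.3 nt, which was the least variable tail seen among the members, and all 12 lay below the median of all genes. For rab-19 the mean tail was 30.3 and 26.5 nt in pos-1 RNAi, 32.24 and 30.6 in gld-3 RNAi and 36.4 and 32.7 in gld-2 RNAi. In mex-5 RNAi rab-19 stood at 32.9 and 23.3 nt, in mex-6(pk440) at 39.2 and 24.97 nt and in N2 at 35.3 and 30.6 nt. Both pos-1 RNAi libraries lay below both N2 libraries, and each of the other groups overlapped N2. For vps-22 it was 30.6 and 32.5 nt in pos-1 RNAi, 29.1 and 37.8 in gld-3 RNAi and 31.7 and 33.98 in gld-2 RNAi. In mex-5 RNAi vps-22 stood at 32.4 and 36.8 nt, in mex-6(pk440) at 27.2 and 28.2 nt and in N2 at 30.3 and 29.5 nt. For vps-33.2 it was 36.7 and 33.7 nt in pos-1 RNAi, 33.08 and 35.9 in gld-3 RNAi and 37.2 and 30.1 in gld-2 RNAi. In mex-5 RNAi vps-33.2 stood at 37.6 and 35.1 nt, in mex-6(pk440) at 29.5 and 37.7 nt and in N2 at 27.3 and 23.7 nt. Its 2 N2 libraries were the shortest of the 12, and in vps-22 the 2 mex-6(pk440) libraries were. For vps-20 it was 24.01 and 38.2 nt in pos-1 RNAi, 26.5 and 25.6 in gld-3 RNAi and 38.8 and 35.8 in gld-2 RNAi. In mex-5 RNAi vps-20 stood at 24.4 and 26.9 nt, in mex-6(pk440) at 34.98 and 31.6 nt and in N2 at 28.3 and 26.3 nt. The tested HOPS and CORVET genes thus ranged from 33.15 nt (vps-33.2) to 70.8 nt (vps-18).

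**Figure D3:**
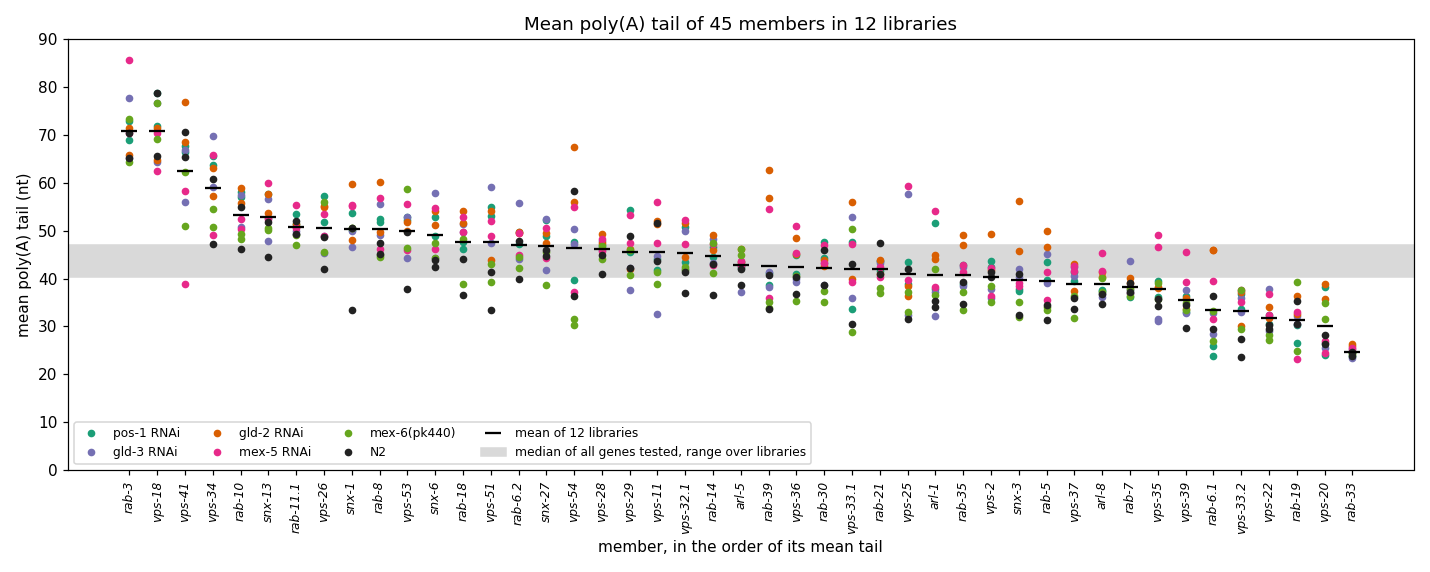
Mean poly(A) tail in nt (y axis) of the 45 tested members (x axis, in order of their mean), with 1 dot per library coloured by group, a dash for the mean of 12 libraries and a grey band for the range over libraries of the median of all genes (40.4 to 46.9 nt). The members rab-3, vps-18, vps-34 and rab-11.1 lie wholly above the band, and rab-33, vps-20, rab-19, vps-22 and vps-33.2 wholly below it.

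In gld-2 RNAi 1 member of 45 passed by tail, beside 0.238% of all genes tested, and this was rab-5 (chromosome I, 9308437 to 9309762, plus strand, ce10). Its mean tail was 39.7 and 43.5 nt in pos-1 RNAi, 39.1 and 45.2 in gld-3 RNAi and 46.5 and 49.8 in gld-2 RNAi. In mex-5 RNAi rab-5 stood at 35.4 and 41.3 nt, in mex-6(pk440) at 33.4 and 34.1 nt and in N2 at 34.5 and 31.4 nt. The gld-2 RNAi libraries were the 2 longest of the 12 and N2 replicate 2 was the shortest, and gld-2 RNAi was 15.2 ± 2.64 nt longer than N2 (SE; limma adjusted p = 0.0455). The pos-1 RNAi and gld-3 RNAi libraries also lay above both N2 libraries, at 8.65 ± 2.64 nt and 9.18 ± 2.64 nt over N2, but did not pass (limma adjusted p = 0.334 and 0.185). By level, rab-5 also had a higher level in gld-2 RNAi than in N2. It did not pass without gld-2 RNAi replicate 1 (limma adjusted p = 0.118), gld-2 RNAi replicate 2 (0.355) or N2 replicate 2 (0.318), or with the 4 samples alone (0.123).

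In the same comparison the next members by p were snx-3, rab-39 and rab-6.1, none of which passed. For snx-3 the mean tail was 37.9 and 37.5 nt in pos-1 RNAi, 42.0 and 40.4 in gld-3 RNAi and 45.6 and 56.2 in gld-2 RNAi. In mex-5 RNAi snx-3 stood at 38.5 and 39.1 nt, in mex-6(pk440) at 31.9 and 35.1 nt and in N2 at 40.8 and 32.4 nt (gld-2 RNAi minus N2 14.3 ± 3.66 nt, limma adjusted p = 0.103). For rab-39 it was 38.6 and 41.2 nt in pos-1 RNAi, 38.2 and 41.4 in gld-3 RNAi and 62.7 and 56.9 in gld-2 RNAi. In mex-5 RNAi rab-39 stood at 35.9 and 54.5 nt, in mex-6(pk440) at 33.8 and 35 nt and in N2 at 40.8 and 33.6 nt (gld-2 RNAi minus N2 22.6 ± 5.93 nt, limma adjusted p = 0.111). The gene rab-39 had only 43 and 29 reads in gld-2 RNAi and 95 and 65 reads in N2. For rab-6.1 the mean tail was 23.8 and 26 nt in pos-1 RNAi, 28.5 and 32.7 in gld-3 RNAi and 45.98 and 46.03 in gld-2 RNAi. In mex-5 RNAi rab-6.1 stood at 31.6 and 39.5 nt, in mex-6(pk440) at 33.3 and 26.97 nt and in N2 at 36.3 and 29.5 nt (gld-2 RNAi minus N2 13.1 ± 3.61 nt, limma adjusted p = 0.128). In each of the 3 genes both gld-2 RNAi libraries lay above both N2 libraries. In rab-6.1 the pos-1 RNAi libraries lay below both N2 libraries (-7.99 ± 3.61 nt, limma adjusted p = 0.430), and its level was called lower in both pos-1 RNAi and gld-2 RNAi.

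In gld-2 RNAi, 30 of 45 members (66.7%) had both libraries above both of N2 by tail, beside 39.2% of all genes tested, and 0 had both below, beside 10.1%. The members' median difference was 6.12 nt, beside 2.74 nt for all genes. At an unadjusted p under 0.05 there were 17 members (37.8%), beside 16.5% of all genes, and all 17 were longer in gld-2 RNAi. They included rab-35, rab-18, rab-14 and rab-8 among the Rab genes, vps-32.1, vps-20, vps-36 and vps-28 among the ESCRT genes, and vps-26, snx-1 and snx-6 among the retromer and sorting nexin genes. For rab-35, a GTPase of receptor recycling, the tail was 47.0 and 49.1 nt in gld-2 RNAi and 39.4 and 34.7 nt in N2, and for rab-18, a GTPase of the ER and lipid droplets, it was 51.6 and 54.2 nt in gld-2 RNAi and 44.1 and 36.5 nt in N2. N2 replicate 2 had the shortest tails of all libraries (median of all genes 40.4 nt, of the members 37.02 nt), and without it the medians were 3.92 nt for the members and 0.845 nt for all genes.

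In mex-5 RNAi 0 of 45 members passed with limma, beside 0.402% of all genes tested, and 10 did at an unadjusted p under 0.05 (22.2%, beside 15.3%). The closest was the retromer gene vps-35, with 39.5 and 36.04 nt in pos-1 RNAi, 31.5 and 31.04 in gld-3 RNAi and 38.3 and 38.1 in gld-2 RNAi. In mex-5 RNAi vps-35 stood at 49.1 and 46.6 nt, in mex-6(pk440) at 39.05 and 35.7 nt and in N2 at 34.2 and 35.7 nt. Its mex-5 RNAi libraries were the 2 longest of the 12, and mex-5 RNAi was 12.9 ± 2.74 nt longer than N2 (limma adjusted p = 0.0642); it passed on log2 tails and with at least 50 reads. The lysosomal GTPase gene arl-8 had 37.5 and 37.6 nt in pos-1 RNAi, 36.1 and 36.8 in gld-3 RNAi and 40.2 and 41.3 in gld-2 RNAi. In mex-5 RNAi arl-8 stood at 41.6 and 45.2 nt, in mex-6(pk440) at 37.3 and 40.1 nt and in N2 at 36.8 and 34.8 nt (mex-5 RNAi minus N2 7.61 ± 2.14 nt, limma adjusted p = 0.135). The HOPS gene vps-39 had 33.11 and 36.3 nt in pos-1 RNAi, 32.7 and 37.7 in gld-3 RNAi and 35.9 and 33.7 in gld-2 RNAi. In mex-5 RNAi vps-39 stood at 39.2 and 45.5 nt, in mex-6(pk440) at 33.5 and 34.9 nt and in N2 at 34.4 and 29.7 nt (mex-5 RNAi minus N2 10.3 ± 3.12 nt, limma adjusted p = 0.158). In both genes the mex-5 RNAi libraries lay above both N2 libraries. Both libraries lay above both of N2 in 21 members (46.7%), beside 27.4% of all genes, and below in 1 member, vps-41 (58.4 and 38.9 nt in mex-5 RNAi against 70.5 and 65.4 nt in N2), beside 13.2%. The gene vps-41 had 62 and 26 reads in mex-5 RNAi and 104 and 59 reads in N2. The median difference was 5.02 nt for the members and 1.83 nt for all genes, or 2.45 and -0.07 nt without N2 replicate 2 and 2.44 and 0.00666 nt without mex-5 RNAi replicate 2.

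In pos-1 RNAi 0 members passed by tail with limma, beside 0.0183% of all genes, and 5 did at an unadjusted p under 0.05 (beside 11.6%). These were vps-51, rab-5, vps-26, vps-32.1 and, in the other direction, rab-6.1. The GARP and EARP gene vps-51 had 54.8 and 53 nt in pos-1 RNAi, 47.3 and 59.1 in gld-3 RNAi and 53.98 and 43.9 in gld-2 RNAi. In mex-5 RNAi vps-51 stood at 48.9 and 52.04 nt, in mex-6(pk440) at 39.3 and 43.1 nt and in N2 at 41.3 and 33.5 nt (pos-1 RNAi minus N2 16.5 ± 4.99 nt, limma adjusted p = 0.334). N2 replicate 2 was its shortest library. The retromer gene vps-26 had 51.7 and 57.2 nt in pos-1 RNAi, 45.3 and 48.9 in gld-3 RNAi and 55.1 and 54.9 in gld-2 RNAi. In mex-5 RNAi vps-26 stood at 48.9 and 53.4 nt, in mex-6(pk440) at 56.01 and 45.4 nt and in N2 at 48.7 and 42.0 nt (pos-1 RNAi minus N2 9.12 ± 3.93 nt, limma adjusted p = 0.414). Both libraries lay above both of N2 in 23 members (51.1%), beside 37.2%, and below in 3 (6.67%), beside 9.87%. The median difference was 3.78 nt for the members and 2.68 nt for all genes. In gld-3 RNAi 0 members passed with limma, beside 0.0183%, and 3 did unadjusted (6.67%, beside 15.4%): rab-5, vps-51 and rab-18. For rab-18 the mean tail was 46.1 and 47.7 nt in pos-1 RNAi, 51.3 and 49.7 in gld-3 RNAi and 51.6 and 54.2 in gld-2 RNAi. In mex-5 RNAi rab-18 stood at 52.9 and 49.7 nt, in mex-6(pk440) at 48.2 and 38.8 nt and in N2 at 44.1 and 36.5 nt (gld-3 RNAi minus N2 10.205 ± 3.79 nt, limma adjusted p = 0.256). There 10 members (22.2%) lay wholly above N2, beside 27.4%, and 3 wholly below, beside 13.6%, with medians of 3.19 and 2.13 nt. Without N2 replicate 2 these medians were 1.58 and 0.751 nt in pos-1 RNAi and 0.685 and 0.235 nt in gld-3 RNAi, and without gld-3 RNAi replicate 2 they were 0.0115 and 0.176 nt there.

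In mex-6(pk440) 0 members passed by tail with limma, as did 0 genes of all 5471 (0%), and 0 members had an unadjusted p under 0.05, beside 3.56% of all genes. Both libraries lay above both of N2 in 8 members (17.8%), beside 12.6%, and below in 9, beside 15.1%. By p the first 3 were rab-21 (36.9 and 38.1 nt in mex-6(pk440) against 47.3 and 40.9 nt in N2), vps-54 (31.7 and 30.4 nt in mex-6(pk440) against 36.4 and 58.4 nt in N2) and arl-5 (46.2 and 44.9 nt in mex-6(pk440) against 38.6 and 41.9 nt in N2). The median difference was -0.54 nt for the members and -0.20 nt for all genes. Library by library, the members' median tail lay 0.704 and 3.09 nt above the median of all genes in gld-2 RNAi and 0.861 and 1.08 nt above it in mex-5 RNAi. In the other 8 libraries it lay below, by 0.738 to 3.51 nt, with N2 at -2.16 and -3.36 nt. These differences do not use N2 as a reference, and only gld-2 RNAi and mex-5 RNAi had both libraries above 0. The limma test for any difference among the 6 groups called 0 of 45 members by tail (11 at an unadjusted p under 0.05, beside 18.4%), beside 1.7% of all genes, with rab-5 (adjusted p = 0.0505), vps-35 (0.0694) and rab-6.1 (0.0733) closest.

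**Figure D4:**
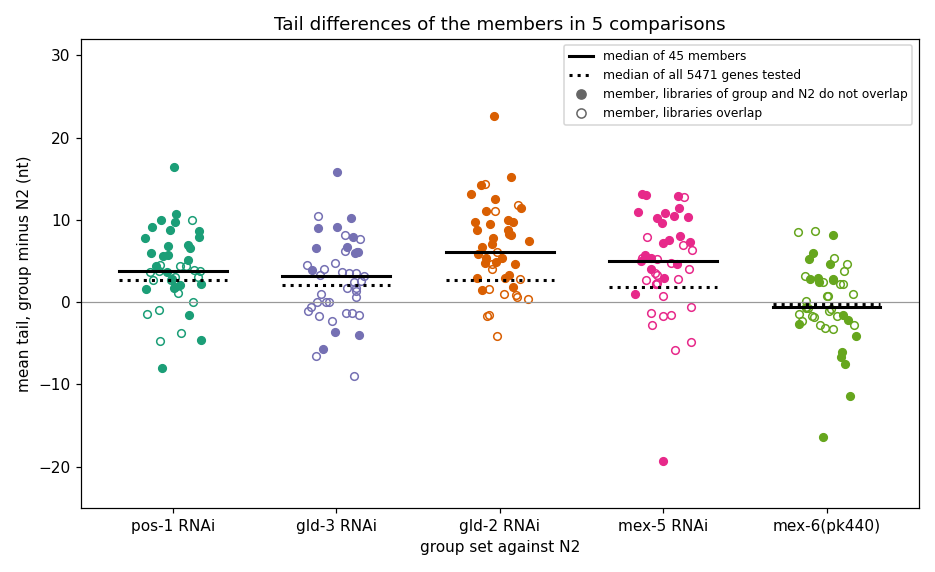
Difference in mean tail from N2, in nt (y axis), of the 45 members in each of the 5 comparisons (x axis); filled dots are members whose 2 libraries do not overlap those of N2, open dots those that overlap, solid lines the members' median and dotted lines the median of all 5471 genes. The solid line lies highest over the dotted one in gld-2 RNAi (6.12 against 2.74 nt) and mex-5 RNAi (5.02 against 1.83 nt); all 5 columns share the same N2 libraries.

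**Figure D5:**
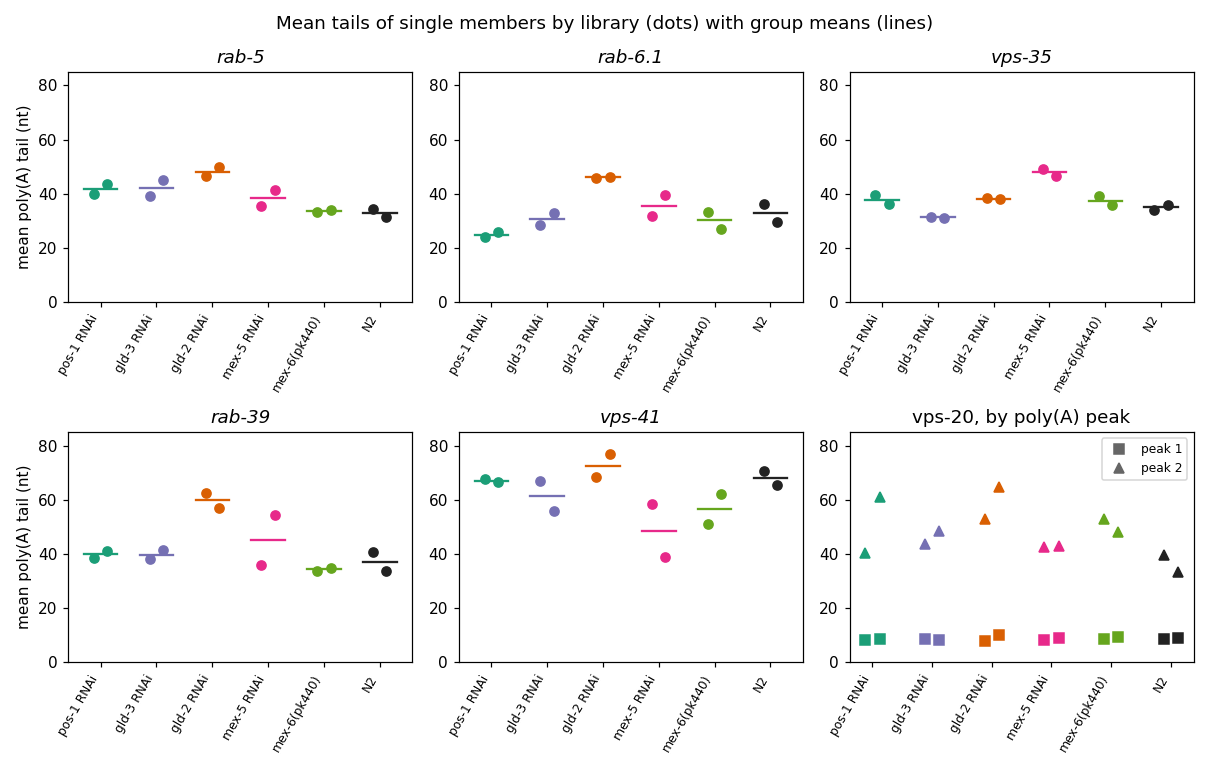
Mean tail in nt (y axis) by library (dots) with group means (lines) for rab-5, rab-6.1, vps-35, rab-39 and vps-41, and by poly(A) peak for vps-20 (squares for peak 1, triangles for peak 2), with groups along the x axis. The gld-2 RNAi libraries are the 2 highest in rab-5, rab-6.1 and rab-39 and the mex-5 RNAi libraries in vps-35, and peak 1 of vps-20 stays between 7.82 and 10.0 nt in every library.

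The deposited peaks show where the RNA of a gene ends. No peak was assigned to 3 members (rab-28, rab-37 and vps-45), 37 had 1 peak, 10 had 2 and 3 had 3 (rab-11.1, rab-14 and rab-6.2). The level calls of rab-28 thus rest on reads with no assigned poly(A) peak. The choice between peaks could be tested in 10 members, and edgeR called 0 of them in pos-1 RNAi (beside 1.65% of all genes tested), gld-3 RNAi (1.51%), gld-2 RNAi (2.33%), mex-5 RNAi (4.19%) and mex-6(pk440) (0.343%). At an unadjusted p under 0.05 there was 1 in all, rab-35 in mex-6(pk440) (beside 2.33% of all genes), whose distal peak held 7 and 1 reads in mex-6(pk440) against 13 and 16 reads in N2.

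Within a member, tails could differ by peak. In rab-11.1 the distal peak held 53.8% of the reads with a mean tail of 51.7 nt, and the middle peak held 37.8% with 42.3 nt. In rab-14 the most distal of 3 peaks (11.5% of reads) had 54.5 nt against 43.0 nt at the main one. In 12 of 12 libraries the distal tail was longer than the middle one in rab-11.1 and the main one in rab-14. The proximal peak of rab-11.1 (8.42% of reads) had a mean of 44.5 nt. In mex-6(pk440) replicate 1 it had 51.3 nt, above the 47.2 nt of the distal peak. In rab-7 the peaks did not keep 1 order: the proximal tail ranged over 26.5 to 62.1 nt, around the 35.7 to 40.7 nt of the distal one (77.6% of reads), and it was the shorter in both mex-6(pk440) libraries and mex-5 RNAi replicate 1.

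The sharpest contrast was in vps-20. Its peak 1, centred 155 bp inside the annotated gene end (chromosome I, 637605 to 637705, plus strand, ce10), held 84.4% of its peak reads but had mean tails of 7.82 to 10.0 nt, while peak 2, at the gene end (637750 to 637850), had 33.3 to 64.9 nt with a mean of 47.6 nt. The tails of the 2 peaks did not overlap in any library, and the short tail of the gene as a whole (30.1 nt) lay between them. Unscaled, the peak 1 reads numbered 249 and 149 in mex-5 RNAi and 231 and 73 in N2. The peak 2 reads numbered 36 and 31 in mex-5 RNAi and 42 and 35 in N2. The libraries were unequal in size, so unscaled counts alone do not show in which group a peak was higher. The gene's 293 and 183 reads in mex-5 RNAi made 47.7 and 45.5 CPM. Its 295 and 110 reads in N2 made 29.6 and 19.8 CPM. On that scale peak 1 was higher in both mex-5 RNAi libraries than in both of N2, while peak 2 overlapped between the groups. The level of each peak on its own was not tested. Peak 1 held 87.4% and 82.8% of the peak reads in mex-5 RNAi and 84.6% and 67.6% in N2. The vps-20 reads that set its level thus lay mostly in the peak with short tails.

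Other members also had peaks that limit their values. In vps-26 the distal peak, shared with T20D3.6, had a mean tail of 30.1 nt against 50.996 nt at the peak of its own. The single peak of vps-29 was shared with ZK1128.1. In rab-8 the single peak averaged 586 reads, while the gene had a median of 758.5 reads per library. The mean tail was 39.7 nt at that peak and 50.3 nt for the gene. In rab-6.2 the most proximal peak held 31.6% of the reads but had a tail value in only 2 of 12 libraries, and in vps-16 the whole gene had one in only 2. The sources used here do not say how many reads stood behind each deposited tail.

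Of the paralog pairs, rab-6.1 and rab-6.2 averaged 32.097 and 29.6 CPM, with tails of 33.4 and 47.1 nt on average whose ranges over libraries overlapped. The level of rab-6.2 was 33.9 and 28.1 CPM in pos-1 RNAi, 36.4 and 17.9 in gld-3 RNAi and 26.7 and 26.3 in gld-2 RNAi. In mex-5 RNAi rab-6.2 stood at 37.96 and 29.1 CPM, in mex-6(pk440) at 24.8 and 25.8 CPM and in N2 at 40.3 and 27.6 CPM, and it passed in no comparison, while rab-6.1 fell in pos-1 RNAi and gld-2 RNAi. That the 2 genes differed in their change was not tested. The HOPS and CORVET genes vps-33.1 and vps-33.2 stood at 5.17 and 4.77 CPM. For vps-33.1 the tail was 47.6 and 33.7 nt in pos-1 RNAi, 36 and 52.9 in gld-3 RNAi and 55.98 and 39.8 in gld-2 RNAi. In mex-5 RNAi vps-33.1 stood at 39.2 and 47.2 nt, in mex-6(pk440) at 28.8 and 50.2 nt and in N2 at 43.1 and 30.6 nt. Its libraries ranged over 28.8 to 55.98 nt, overlapping the 23.7 to 37.7 nt of vps-33.2. Of the pairs rab-11.1 and rab-11.2 and vps-32.1 and vps-32.2, the second gene was in a merged feature and was not analysed here.

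Read by role, the calls of each comparison stand beside the 12.2% of all genes called by level in pos-1 RNAi, 8.08% in gld-3 RNAi, 27.2% in gld-2 RNAi, 30.8% in mex-5 RNAi and 0.0213% in mex-6(pk440), where 0 members were called. Of 5 Arl genes, 1 was higher (arl-13) and 1 lower (arl-5) in gld-2 RNAi and 1 was higher (arl-6) and 1 lower (arl-13) in mex-5 RNAi, so that 2 of 5 were called in each, a larger share than over all genes but on few genes. Of 4 endosomal and lysosomal Rab genes, 1 was higher in gld-2 RNAi (rab-5), and 1 was higher (rab-5) and 1 lower (rab-21) in mex-5 RNAi. Of 6 Rab genes of the ER and Golgi, 1 was lower in pos-1 RNAi (rab-6.1), and 1 was higher (rab-19) and 1 lower (rab-6.1) in gld-2 RNAi. Of 6 Rab genes of recycling, secretion, synapse and cilium, rab-3 was called higher in gld-3 RNAi and 2 (rab-3 and rab-28) in gld-2 RNAi, while rab-8, rab-10, rab-11.1 and rab-35 were called in none of the 5 comparisons. Of 7 HOPS and CORVET genes and 4 GARP and EARP genes, 0 were called by level in any comparison. Of 8 ESCRT genes, 1 was higher (vps-20) and 1 lower (vps-37) in mex-5 RNAi and 0 elsewhere against N2. Of 9 retromer and sorting nexin genes, 2 were lower in gld-2 RNAi and 2 higher in mex-5 RNAi, with median changes of -0.23 and 0.41 on the log2 scale. No test compared the roles.

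Lists of genes that work with these proteins were counted in the same way. Of 29 tested Rab regulators and partners, 2 were higher and 1 lower in pos-1 RNAi, 1 and 1 in gld-3 RNAi, 5 and 2 in gld-2 RNAi, 2 and 1 in mex-5 RNAi, and 0 in mex-6(pk440). The 7 of 29 called in gld-2 RNAi stand beside 27.2% of all genes, the 3 in mex-5 RNAi beside 30.8%, the 3 in pos-1 RNAi beside 12.2% and the 2 in gld-3 RNAi beside 8.08%. The Rab GTPase-activating protein gene tbc-7 rose in gld-3 RNAi (1.39 ± 0.27), gld-2 RNAi (2.24 ± 0.27) and mex-5 RNAi (1.35 ± 0.27; edgeR adjusted p = 0.00800, 2.3e-04 and 0.00238); it had 34.8 and 42.8 CPM in gld-2 RNAi, against 8.23 and 8.12 CPM in N2. The gene sand-1, which drives the switch from RAB-5 to RAB-7 on endosomes, fell in gld-2 RNAi, with 78.5 and 75.1 CPM in gld-2 RNAi, against 140.2 and 201 CPM in N2 (-1.15 ± 0.24, edgeR adjusted p = 0.00424), and in mex-5 RNAi (-0.73 ± 0.23, edgeR adjusted p = 0.0307). The RAB-5 effector gene rabn-5 fell in gld-3 RNAi (-1.10 ± 0.29, edgeR adjusted p = 0.0334) and gld-2 RNAi (-1.12 ± 0.29, edgeR adjusted p = 0.0135). Another effector of RAB-5, eea-1, rose in pos-1 RNAi, with 21.7 and 23.6 CPM in pos-1 RNAi, against 8.64 and 9.92 CPM in N2 (1.29 ± 0.34, edgeR adjusted p = 0.0258), as did flcn-1 (1.22 ± 0.27, edgeR adjusted p = 0.0116).

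Of 16 endocytic and sorting cargo genes, 2 were higher and 1 lower in pos-1 RNAi, 1 and 0 in gld-3 RNAi, 4 and 1 in gld-2 RNAi, 2 and 0 in mex-5 RNAi, and 0 in mex-6(pk440). That is 3 of 16 in pos-1 RNAi (beside 12.2% of all genes), 1 in gld-3 RNAi (8.08%), 5 in gld-2 RNAi (27.2%) and 2 in mex-5 RNAi (30.8%). The lipoprotein receptor gene lrp-1 rose in all 4 RNAi groups, by 1.72 ± 0.27 in pos-1 RNAi, 1.31 ± 0.27 in gld-3 RNAi, 1.88 ± 0.27 in gld-2 RNAi and 2.02 ± 0.27 in mex-5 RNAi (edgeR adjusted p = 0.00229, 0.0113, 6.1e-04 and 1.6e-04); its N2 libraries were at 17.3 and 11.4 CPM. The yolk receptor gene rme-2 fell in pos-1 RNAi, with 9.48 and 11.21 CPM in pos-1 RNAi, against 16.5 and 28.3 CPM in N2 (-1.11 ± 0.30, edgeR adjusted p = 0.03002), and in gld-2 RNAi (-1.26 ± 0.31, edgeR adjusted p = 0.0103). Of 37 SNARE and tether genes, 1 was higher and 1 lower in pos-1 RNAi, 5 and 2 in gld-2 RNAi, 2 and 0 in mex-5 RNAi, and 0 in gld-3 RNAi and mex-6(pk440). The 7 of 37 in gld-2 RNAi stand beside 27.2% of all genes, the 2 in mex-5 RNAi beside 30.8%, the 2 in pos-1 RNAi beside 12.2% and the 0 in gld-3 RNAi beside 8.08%. The neuronal SNARE gene ric-4 rose in gld-2 RNAi, with 19.7 and 10.6 CPM in gld-2 RNAi, against 2.01 and 3.07 CPM in N2 (2.64 ± 0.47, edgeR adjusted p = 0.00182), and the vesicle tether gene uso-1 rose in pos-1 RNAi (1.29 ± 0.36), gld-2 RNAi (1.25 ± 0.36) and mex-5 RNAi (1.27 ± 0.36; edgeR adjusted p = 0.0314, 0.0213 and 0.0164).

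Coats and adaptors had 23 tested genes, with 1 higher in pos-1 RNAi (beside 12.2% of all genes called), 1 lower in gld-3 RNAi (8.08%), 1 lower in gld-2 RNAi (27.2%) and 2 higher in mex-5 RNAi (30.8%). The adaptor gene dab-1 was the one that fell in gld-3 RNAi (-0.75 ± 0.19, edgeR adjusted p = 0.0259) and in gld-2 RNAi (-0.64 ± 0.19, edgeR adjusted p = 0.0228), and the AP-1 subunit gene apm-1 rose in mex-5 RNAi, with 15.97 and 11.7 CPM in mex-5 RNAi, against 1.81 and 3.97 CPM in N2 (2.34 ± 0.44, edgeR adjusted p = 0.00150). Of 13 Arf family genes and regulators 1 was lower in pos-1 RNAi (12.2%), 0 were called in gld-3 RNAi (beside 8.08%) or in gld-2 RNAi (beside 27.2%), and 1 was higher and 1 lower in mex-5 RNAi (30.8%). Of 31 ESCRT partner, PI3P and autophagy genes 1 was lower in gld-2 RNAi (epg-6, an autophagy gene, beside 27.2%), 1 was higher in mex-5 RNAi (alx-1, an ESCRT partner, beside 30.8%) and 0 were called in pos-1 RNAi (12.2%) and gld-3 RNAi (8.08%). By tail, 0 genes of these 6 lists passed with limma in any comparison, and in gld-2 RNAi their median differences were 4.96 nt for Rab regulators and partners, 5.71 nt for the Arf family and regulators, 4.93 nt for coats and adaptors, 1.86 nt for SNAREs and tethers, 4.06 nt for ESCRT partners and 4.16 nt for cargo, beside 2.74 nt for all genes. In mex-5 RNAi they were, in the same order, 3.65, 2.40, 5.71, 0.576, 2.82 and 3.26 nt. These stand beside 5.02 nt for the members and 1.83 nt for all genes, so coats and adaptors were above the members there.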

How the data were processed

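PAT-seq read counts and mean poly(A) tail lengths were taken for 12 early embryo libraries in 6 groups of 2, grouped by sample title. The files deposited by the authors hold unscaled counts of reads for genes and for peaks, and a mean tail length (nt) for each; per the labels' protocols, fragments of 120 to 300 bases were selected, which limits the tails that can be read, and per the submitters' processing notes reads were aligned with Bowtie2 2.2.2 to ce10. The sources used here do not state how tails were averaged. Symbols and ce10 positions came from the deposited annotation.

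Levels were tested with edgeR 4.0.16 (quasi-likelihood, TMM factors, its default low-count filter) and tails with limma 3.58.1 on nt (at least 10 reads and a value in all 12 libraries, trend on reads), in R 4.3.3, each with all 12 libraries and 1 coefficient per group. Site choice between peaks that averaged 10 reads or more was tested with edgeR. Tests were two-sided, p-values were adjusted by Benjamini-Hochberg over all genes of a comparison, and the threshold was 0.05. SE of a log2 change was its size divided by the root of F. The scripts were tested on simulated data. Alternatives were RLE factors, no filter, DESeq2 1.42.0, a replicate block, mex-6(pk440) in place of N2, the 4 samples alone, at least 50 reads, weights, library centring, log2 tails, peaks of at least 20 reads, and each library left out.

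Values per library are given for members that passed a test, the 5 highest and 5 lowest by level and by tail, the 3 smallest p of each comparison and paralog pairs; for other lists, up to 3 called genes per list and comparison. The members and all lists were chosen with earlier results of these data known. Reads are not independent molecules, so floors cover counting error only. Marker lists of maternal, late, sperm and yolk genes were summed per library; in mex-6(pk440), where no member was called by level or tail, sperm genes summed to 85.3 to 122 CPM, yolk genes to 120 to 150.1 CPM and late genes to 561 to 616 CPM. Read sequences and gene sequences were not used here.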

Additional observations from a re-analysis of the deposited data

How the results depend on the processing

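No called member changed direction under any alternative, and rab-3 in gld-2 RNAi passed in 10 of 10. By level in pos-1 RNAi the 1 called member became 2 with no low-count filter and 0 with the 4 samples alone, 1 (rab-3 in place of rab-6.1) with mex-6(pk440) in place of N2, and 0 to 2 when a library was left out. In gld-3 RNAi the 1 became 2 with no filter, 2 with DESeq2 and 0 with mex-6(pk440) in place of N2, and 0 to 3 when a library was left out. In gld-2 RNAi the 9 became 3 to 6 when a library was left out. In mex-5 RNAi the 8 became 1 with mex-6(pk440) in place of N2, 5 with the 4 samples alone and 1 to 3 when a library was left out. By tail in gld-2 RNAi the 1 became 2 with mex-6(pk440) in place of N2, 0 with the 4 samples alone and 0 to 1 when a library was left out. By tail in mex-5 RNAi the 0 became 1 with at least 50 reads and 1 with log2 tails. Among the 6 groups by tail the 0 became 2 with at least 50 reads, 2 with library centring, 3 with log2 tails, 3 with weights and 0 to 1 when a library was left out. The causes were not tested. Counts by site choice, by tail in pos-1 RNAi and gld-3 RNAi, and by level and tail in mex-6(pk440) stayed at 0 in the alternatives run.

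Same-numbered libraries did not deviate together in every pair of groups: over 15 pairs of groups the correlation of their deviations had a median of 0.20 by level (-0.149 to 0.455) and 0.00931 by tail (-0.146 to 0.254), and 9 and 5 pairs were over 0.1. With the replicate number as a block, 2 members passed by level in pos-1 RNAi (rab-6.1 and snx-27), 4 in gld-3 RNAi (rab-3, rab-19, arl-5 and vps-25) and 14 among the 6 groups (the 9 and rab-5, rab-19, rab-30, rab-33 and snx-27), and 1 by tail among the 6 groups (rab-5). Members such as rab-28, arl-6 and arl-13, with under 30 reads in most libraries, are limited by depth.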
